A study of Mus musculus with 22 samples.

Results

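The cytosolic ribosomal protein genes were 82 of the 55011 gene symbols in a count table of adipose tissue regulatory T cells. Members were the symbols of the Rps and Rpl series, the Rplp stalk genes and Rpsa. Symbols of the Rps6k kinases and of named pseudogenes were left out, as were rows with under 220 counts summed over 22 libraries. The name pattern matched 90 symbols, of which 8 fell under the count minimum. The highest of these was Rps3a3 with 141 counts and the lowest member was Rps4l with 259 counts, followed by Rpl24 with 807. The members comprised 33 genes of the small subunit and 49 of the large subunit. Ribosomal protein S30, encoded by Fau, lay outside the name pattern because it is made as a fusion to a ubiquitin-like protein.

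RNA was sequenced from 1000 YFP-positive Tregs per library, sorted in a pair of rounds from visceral fat of male C57BL/6 Foxp3.Cre-YFP mice at ZT0 (lights on). The labels call each library Bmal1 KO or Bmal1 WT, and both genotypes carried the Foxp3.Cre-YFP allele, which couples Cre and YFP to the Treg factor Foxp3. BMAL1, encoded by Arntl, is a transcription factor of the circadian clock. Transfer libraries, 2 KO and 2 WT, were sorted 9 weeks after adoptive transfer from mice 20 weeks old, and the sources used here do not describe the recipients or the transferred cells further. Lean diet libraries (LFD in the labels), 3 KO and 3 WT, came from mice 18 weeks old. High fat diet (HFD) libraries, 3 KO and 3 WT at each time, came from mice 18 weeks old after 4 weeks of the diet and 30 weeks old after 16 weeks, so the longer diet and the greater age cannot be told apart. Whether replicates came from different mice is not stated, and each p-value below therefore speaks only of library-to-library spread, which may be technical.

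The ribosome is built from a small subunit, which reads the messenger RNA, and a large subunit, which joins amino acids. Its protein genes are among the most abundantly transcribed in dividing and growing cells, and their messages carry a run of pyrimidines at the 5′ end (the TOP motif) through which mTORC1 signalling controls how well they are translated. Much of their regulation is therefore at translation, which counts of messenger RNA do not measure. T cells raise ribosome production on activation. Mammalian genomes also hold many processed pseudogenes of these genes, which are copies of the spliced message.

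Start sites were compared because the pyrimidine run is the one sequence feature that the class is known for. RefSeq (GRCm38.p6) gave a promoter for 61 of the 82 members, from 250 bases before to 50 bases after the annotated start. Windows of 30 bases, from 20 before to 10 after the start, are printed here for 8 members that the results return to, 5′ to 3′ on the gene's strand, with the longest unbroken run of C and T in capitals.
Rpl4: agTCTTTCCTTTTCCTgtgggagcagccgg
Rplp0: acgtcgTCTTCgggtttcgaggaccgcctg
Rpl14: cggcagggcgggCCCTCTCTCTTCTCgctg
Rpl22l1: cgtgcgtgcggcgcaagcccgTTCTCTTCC
Rps27: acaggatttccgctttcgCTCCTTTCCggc
Rps27l: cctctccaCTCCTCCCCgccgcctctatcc
Rps2: tgcgtaggcagtcgagatctcgcgCTTCTT
Rpsa: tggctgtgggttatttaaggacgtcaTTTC
The windows lie at chr9:64173367-64173396 (+) for Rpl4, chr5:115559447-115559476 (+) for Rplp0, chr9:120571497-120571526 (+) for Rpl14 and chr3:28805488-28805517 (+) for Rpl22l1. They lie at chr3:90213639-90213668 (-) for Rps27, chr9:66946066-66946095 (+) for Rps27l, chr17:24720043-24720072 (+) for Rps2 and chr9:120127746-120127775 (+) for Rpsa. The longest run in the window held 14 pyrimidines in Rpl4 and in Rpl14, and 4 in Rpsa. Counted from the annotated start, it began at -18 in Rpl4, at -8 in Rpl14 and at 6 in Rpsa. The run of Rpl4 thus ended before the start. RefSeq lists a second start for Rps27l, where the longest run was 4, and the window printed is that of the first. A run of 8 or more C or T within 10 bases of the start was found in 21 of the 61 members (34.4%) and in 8.71% of all 27025 genes with a promoter in RefSeq. Of the windows printed, those of Rpl14, Rpl22l1 and Rps27 had such a run, and the others, Rpl4 and Rps27l included, did not. CCGGAA, the core letters bound by ETS factors, was found on either strand of the 300 bases in 34 members (55.7%) and in 16.7% of all genes. CACGTG, the E-box letters that BMAL1 with CLOCK binds, was found in 6 members (9.84%) and in 8.09% of all genes. These are matches of letters in windows set by an annotated start, not binding sites.

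Each of the 18 diet libraries held between 1955940 and 3467019 counts, and each of the 4 transfer libraries between 4814337 and 5990319. Treg markers were present throughout, with Foxp3 at 402 to 684 CPM (each gene's counts divided by its library's total, which TMM first adjusts for differences in composition) in the 22 libraries. Of 6 cytotoxic T and NK cell markers, Cd8a was at 0 in 21 libraries, but Cd8b1 was at 8.09 to 37.3 CPM and Nkg7 at 27.2 to 640.5 CPM, with 0 libraries at 0. The 6 summed to 707 CPM in WT replicate 3 at 16 weeks of HFD and to 45.8 to 389 CPM in the other libraries. Of 4 adipocyte markers, Adipoq was at 0 in 13 libraries and Fabp4 in 1, and they summed to 52.9, 10.96 and 10.04 CPM in KO at 16 weeks of HFD, against 7.81, 4.67 and 1.70 CPM in WT. Stromal markers, 5 genes including Col1a1 and Pdgfra, summed to 116 CPM in KO replicate 1 at 16 weeks of HFD and to 1.17 to 11.2 CPM in the other libraries. Arntl, the targeted gene, had 73.5 to 101 CPM in the 11 KO libraries and 54.9 to 107 CPM in the 11 WT libraries. No source used here names the deleted exons and the counts cover the whole gene, so this does not check the genotype labels, and KO and WT below mean libraries labelled so.

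Ribosomal protein messages were abundant and even. Rpl4, a large subunit protein that lines the exit tunnel, had the highest count level with a mean of 2198 CPM and a range of 1918 to 2532 CPM over the 22 libraries. Rps3, at the small subunit's messenger entry, averaged 2156 CPM and Rplp0, the base of the stalk that recruits elongation factors, averaged 2112 CPM. Among the 10 highest were also Rpl8 (1461 CPM), Rps4x (1398 CPM), Rps14 (1323 CPM) and Rplp1 (1216 CPM). At the low end were Rps4l (4.34 CPM), Rpl24 (range 7.09 to 17.4 CPM), Rpl36al (40.6 CPM), Rpl23a (48.9 CPM) and Rps27l (53.0 CPM). Rps4l is annotated in GENCODE release M21 as a transcribed processed pseudogene on chromosome 6, and Rpl24 encodes a standard protein of the large subunit.

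Per kilobase of transcript, Rplp1 led with 2436 CPM per kb, and Rps27 had 2272 CPM per kb. Each length was that of 1 annotated transcript, the shortest with the coding sequence used, and may differ from what was expressed. For Rps20 it was 3706 bases, of which 360 code, giving 115 CPM per kb. Levels per kb and the medians below depend on this choice. The median over the 81 members with a coding sequence was 593 CPM per kb, and Rpl24 was lowest with 17.8 CPM per kb. This spread was set beside how far each coding sequence recurs elsewhere. Of each member's coding sequence cut into windows of 38 bases, the length of 1 read, a median of 95.5% of windows recurred in other annotated transcripts, and 32 members had every window shared. The 32 fully shared members had a median of 518 CPM per kb, against 686 CPM per kb for the 49 others. Rpl8, with 10.2% of windows shared, was among the 6 members with under 50% shared, whose median was 1280 CPM per kb. Single genes departed from this order. Rpl7l1, also among these 6 with 40.5% shared, had 65.6 CPM per kb, and Rps27, named above, had every window shared. Rpl24 had 99.3% shared. Across the 81 genes, which are not independent replicates, Spearman's rho between level per kb and percent shared was -0.34. The sources do not say how reads matching several places were counted, so a level set against another member's may carry reads lost to, or gained from, copies. Exons of 39 members also overlapped another annotated gene, small nucleolar RNAs among them, and without strand such reads cannot be told apart.

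Between libraries the members varied little. The coefficient of variation over the 18 diet libraries had a median of 9.14% over the 82 members, whose median level was 439 CPM. The median over all 11698 genes tested in these libraries was 24.0%, at a median level of 30.2 CPM, and counting noise alone is larger at low levels. Coefficients were under 15% for 74 members. Rpl41, the shortest of the class, was the most even at 5.70%, followed by Rpl10 (5.89%), Rpl7a (6.09%), Rplp0 (6.28%) and Rpl7 (6.29%). Rps4l (56.9%), Rpl29 (47.7%), Rpl24 (22.2%), Rps2 (21.9%) and Rpl22l1 (19.3%) were the least even.

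The members' share of all counts had group means between 4.22% and 4.88% in the 8 groups. In transfer libraries it was 4.33% and 4.13% in KO, against 4.23% and 4.21% in WT. On lean diet the share was 4.57%, 4.23% and 4.85% in KO, against 4.61%, 4.77% and 4.93% in WT. At 4 weeks of HFD it was 4.57%, 4.41% and 4.29% in KO, against 4.35%, 4.39% and 4.95% in WT. KO and WT ranges overlapped in all 3 of these settings. At 16 weeks of HFD it was 4.79%, 5.12% and 4.74% in KO, against 5.23%, 4.61% and 4.15% in WT, whose replicates 1 and 3 were the highest and the second lowest of all 22 libraries. Replicate 3 was also the library with the highest sum of cytotoxic markers, whose part in its share was not tested. Some groups did not overlap in share. KO at 16 weeks lay wholly above KO at 4 weeks and above all transfer libraries, and so did WT on lean diet. Over the 3 diets the share averaged 4.62 ± 0.286% in KO and 4.66 ± 0.341% in WT (SD, n = 9 each), so the means differed by less than either spread. Wilson 95% intervals of a single library's share reached at most 0.0293 percentage points to either side and cover counting error only. No test was run on the share, since it sums genes chosen with earlier results known.

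**Figure D1:**
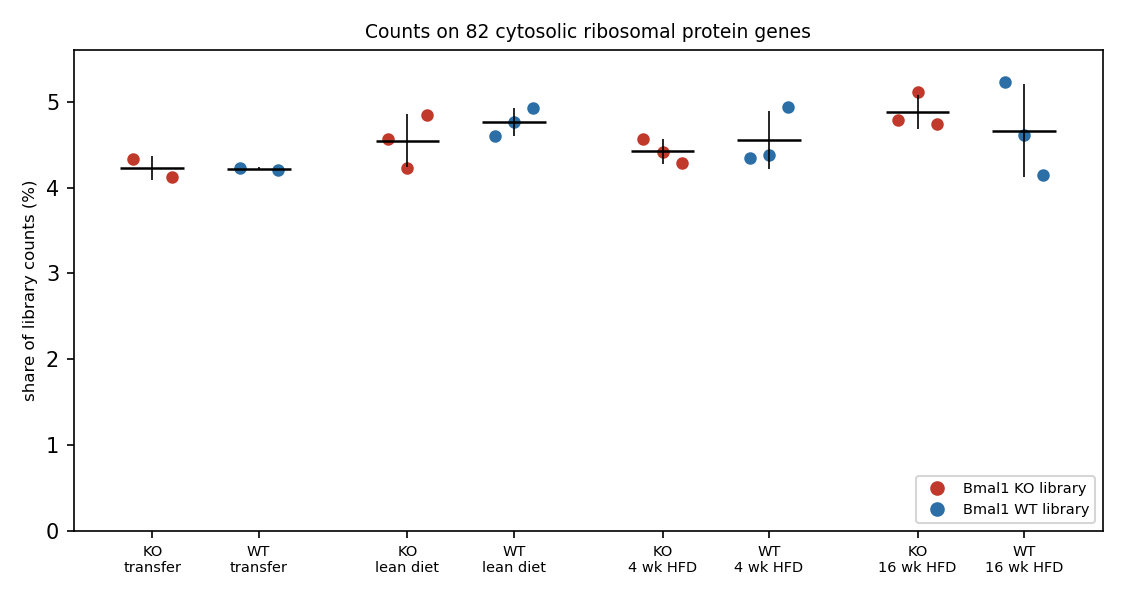
Percent of each library's counts on the 82 genes (y axis, from 0) in the 8 groups (x axis, wk HFD for weeks of high fat diet). Points are libraries, red for Bmal1 KO and blue for WT, with the group mean as a horizontal line and the SD as a vertical line; all libraries lie between 4.13% and 5.23%.

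The share over the 4 transfer libraries averaged 4.23 ± 0.0840%, against 4.66 ± 0.2497% over the 6 lean diet libraries (SD), with ranges that overlapped. This difference depends on the scale. TMM factors were 0.910 to 0.948 in the transfer libraries, against 0.968 or more in each lean diet library, and on TMM-scaled CPM the median over members differed by a log2 ratio of -0.01, against -0.14 for the raw share. Each transfer library was also deeper than every lean diet library. In bulk libraries, fewer cells that make a message and less of it per cell cannot be told apart.

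Large and small subunit genes kept one proportion. Small subunit counts were 0.845 to 0.903 of large subunit counts over the 22 libraries, with group means of 0.857 in KO and 0.880 in WT on lean diet. After transfer the means were 0.863 in KO and 0.864 in WT. Rows named as pseudogenes of the class added 0.0140% to 0.0208% of counts. Genes of the separate mitochondrial ribosome summed to 2772 to 3349 CPM.

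In some libraries nearly all members lay on one side of their means, and such libraries occurred in several groups. In WT replicate 3 at 4 weeks of HFD, 75 of 82 members lay above their own mean over the 22 libraries, while 5 did so in WT replicate 1 and 10 in WT replicate 2 of the same group. In KO libraries of that group the numbers were 41, 4 and 17. On lean diet they were 57, 20 and 75 in KO, against 34, 36 and 67 in WT. At 16 weeks of HFD they were 42, 75 and 48 in KO, against 73, 21 and 5 in WT. The 4 transfer libraries were intermediate, with 52 and 50 in KO, against 37 and 41 in WT. Replicates of one group thus spanned nearly the whole range in WT at 4 and at 16 weeks of HFD. This spread between replicates enters the fits that include the diet libraries, and not that of the transfer libraries alone. The library with 73 had the most counts among the diet libraries, and a library with 75 had 2101241. At the low end, KO replicate 2 at 4 weeks of HFD, with 4, had 3001591 counts, and WT replicate 1 there, with 5, had 2526632. The part of library depth in these numbers was not tested.

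**Figure D2:**
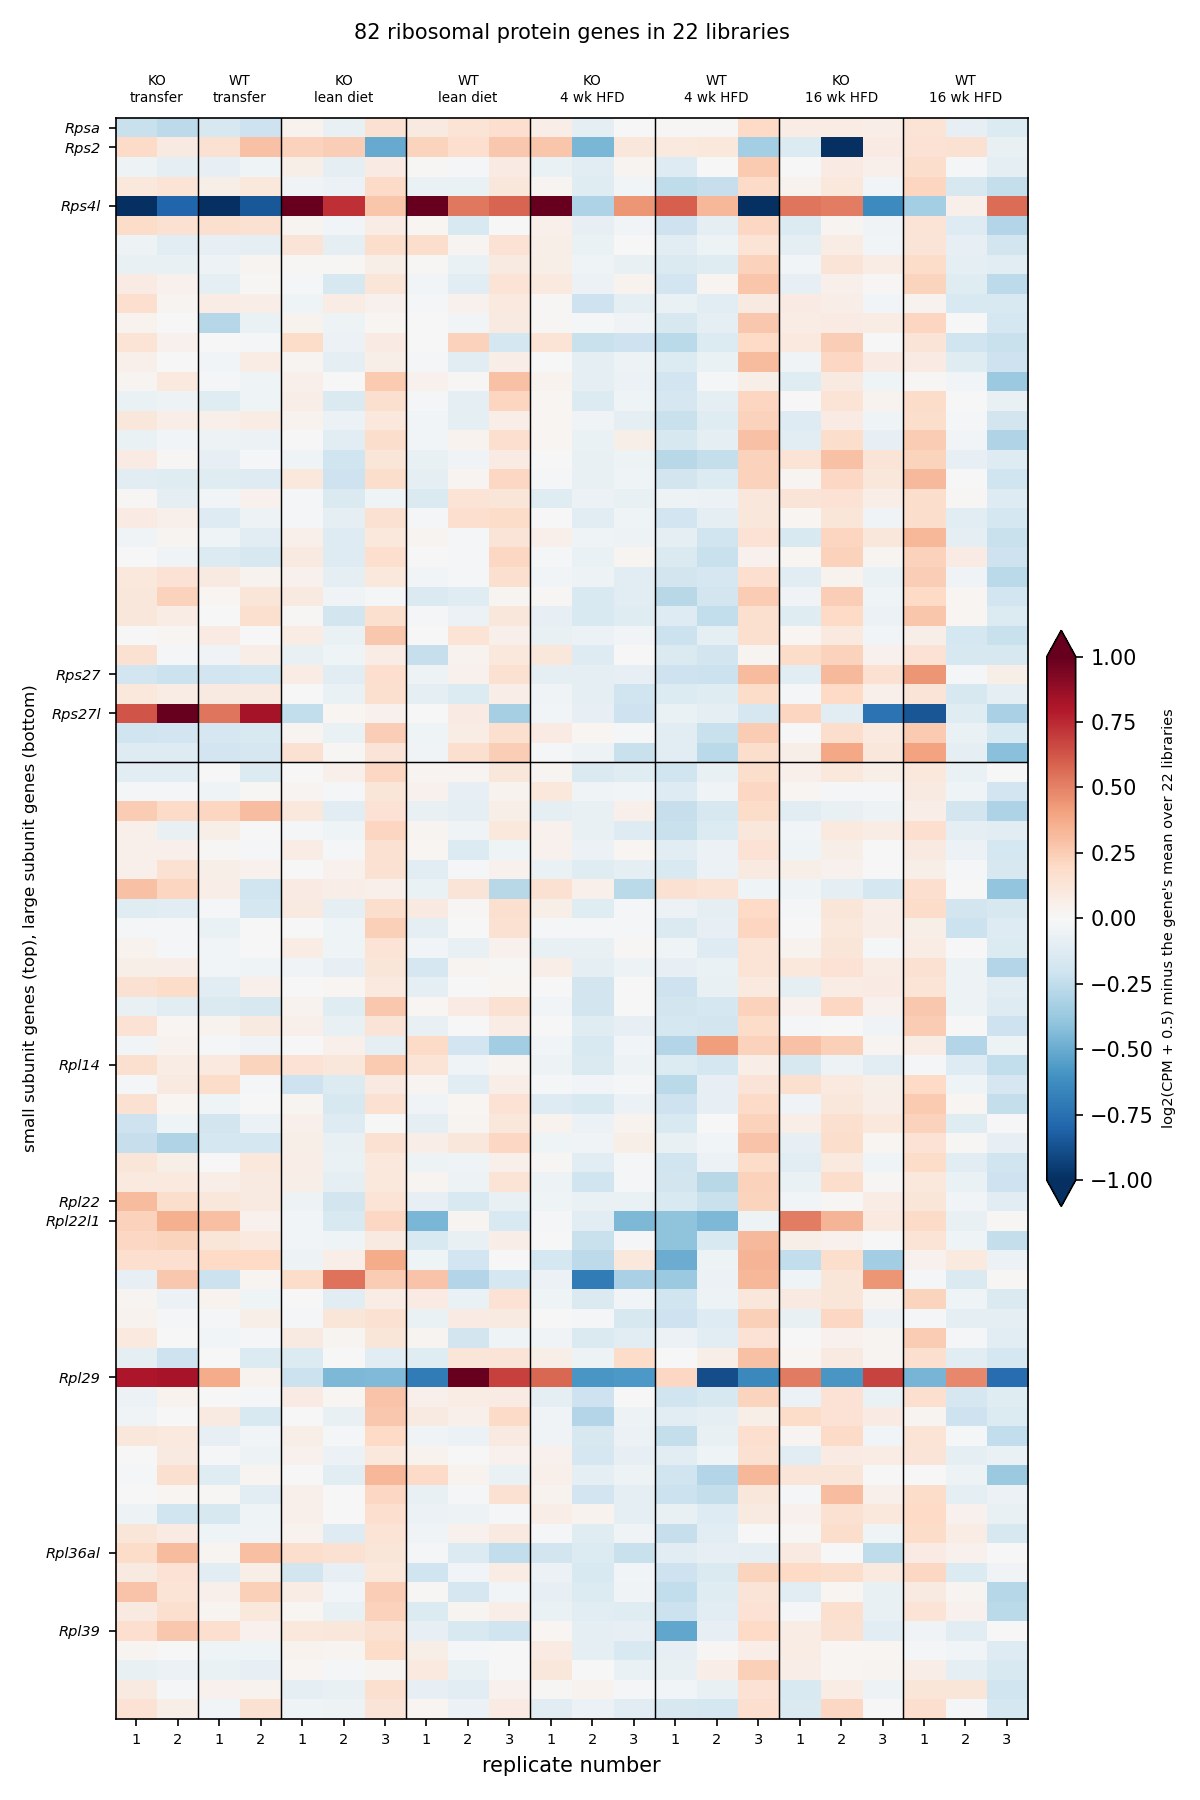
Each row is 1 of the 82 genes, small subunit above and large subunit below the horizontal line, and each column is 1 of the 22 libraries, grouped as named above. Colour gives log2(CPM + 0.5) minus the gene's mean over the 22 libraries, limited to 1 in either direction, and names mark genes described in the text; in some columns most rows have one colour, while Rps4l, Rps27l, Rpl29 and Rps2 have patterns of their own.

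No change of any member between KO and WT was detected on any diet. With edgeR's quasi-likelihood test and an adjusted p under 0.05 over all genes tested, 0 of 82 members were called on lean diet, where 0.0427% of all 11698 genes were called, and 0 by DESeq2. At 4 weeks of HFD 0 of 82 were called (0.0684% of all genes) and 0 by DESeq2. At 16 weeks 0 of 82 were called (0.0427% of all genes) and 0 by DESeq2. Averaged over the 3 diets 0 of 82 were called (0.18% of all genes) and 0 by DESeq2. At an unadjusted p under 0.05, edgeR gave 1 member on lean diet, Rpl29 (7.17% of all genes). It gave 0 at 4 weeks (4.62% of all genes), 0 at 16 weeks (9.15%) and 0 for the average over diets (7.39%). CPM ranges of KO and WT did not overlap for 4 of 82 members on lean diet (4.88%, against 13.2% of all genes), 1 at 4 weeks (1.22%, against 9.64%) and 3 at 16 weeks (3.66%, against 14.3%). Each of these shares was lower for the members than for all genes. Without the filter on low counts 1 member was called on lean diet, Rpl29, among 135 genes in all, and 1 at 16 weeks, Rps2, among 428.

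Intervals show how large a difference could have been missed. For the average over diets the 95% interval of the log2 fold change lay within 0.5 of 0 for 80 of 82 members and for 55.2% of all genes, with a median half-width of 0.14 over members. Within single diets the median half-widths were 0.25 on lean diet, 0.24 at 4 weeks and 0.24 at 16 weeks. The median log2 fold change of KO over WT was 0.02 for lean diet, -0.01 for 4 weeks of HFD, 0.06 for 16 weeks of HFD and 0.03 for the average over diets. Over all genes the median was 0.00 or -0.00 in each. Folds were positive for 51, 27, 70 and 61 of the 82 members in the same order, against 49.6% to 50.3% of all genes. Since most members lay on one side of their means in some libraries, these counts are not those of independent genes.

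Rpl22l1 stood first among members for the average over diets. It encodes a paralog of Rpl22, a large subunit protein whose loss in mice blocks the development of alpha-beta T cells, and Rpl22 is known to hold Rpl22l1 down in mouse cells. Its log2 fold change of KO over WT was 0.20 ± 0.10 (SE; adjusted p = 0.698). Rpl39, a small protein of the exit tunnel, followed with 0.14 ± 0.08 (adjusted p = 0.712) and Rps26, which contacts the messenger near the exit, with 0.11 ± 0.07 (adjusted p = 0.776). In the other direction Rps2 had -0.19 ± 0.15 (adjusted p = 0.839). On lean diet Rpl39 had 292, 294 and 302 CPM in KO, against 256, 244 and 237 CPM in WT, and Rpl36al had 45.5, 44.9 and 43.8 CPM in KO, against 39.8, 36.5 and 34.0 CPM in WT. Both sets of KO libraries lay above all WT libraries there, with adjusted p = 0.704 for Rpl39 and 0.741 for Rpl36al. For Rpl36al, a paralog of Rpl36a, the order did not recur at 4 weeks, where KO had 35.4, 36.7 and 34.4 CPM, against 37.5, 38.1 and 37.9 CPM in WT.

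**Figure D3:**
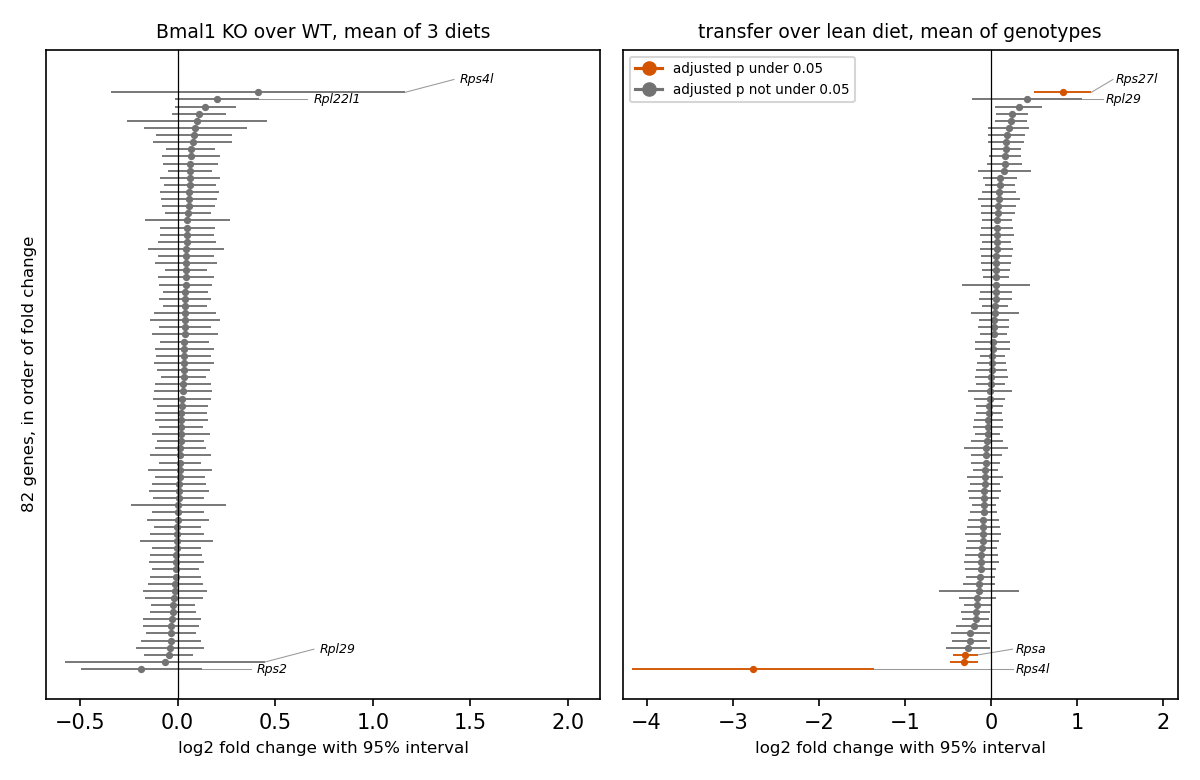
Log2 fold change (x axis) with its 95% interval for the 82 genes, in order of fold change, for KO over WT averaged over 3 diets (left) and for transfer over lean diet averaged over genotypes (right). Orange marks an adjusted p under 0.05, and names mark some of the genes described in the text; left, the interval of every gene but Rps4l and Rpl29 lies within 0.5 of 0, and right, 4 genes are orange.

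After transfer, 0 of the 81 members tested were called between KO and WT by edgeR, where 0.171% of 11715 genes were called, and 0 by DESeq2. Rps4l was left out there by the filter on low counts. At an unadjusted p under 0.05 there was 1 member, against 6.53% of all genes. CPM ranges did not overlap for 32 of 81 members (39.5%), against 35.6% of all genes, a share that groups of 2 libraries give easily. The single member was Rpl29, with 152 and 154 CPM in KO, against 112 and 88.8 CPM in WT. Its log2 fold change was 0.59 ± 0.17 (SE; adjusted p = 0.494). Rpl7l1, a paralog of Rpl7 involved in assembling the large subunit, had 0.31 ± 0.18 (adjusted p = 0.863), Rpl11 had 0.18 ± 0.11 (adjusted p = 0.880) and Rps9 had 0.17 ± 0.11 (adjusted p = 0.880).

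No member's KO effect was shown to depend on diet. For the difference of the KO effect between 4 weeks of HFD and lean diet, and between 16 weeks and lean diet, 0 of 82 members and 0% of all genes were called by edgeR, and 0 members by DESeq2 in each. At an unadjusted p under 0.05 there were 0 members in the first (4.56% of all genes) and 1 in the second (8.49% of all genes), which was Rpl29 with a difference of 1.37 ± 0.60 in log2 fold change (adjusted p = 0.542).

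Rpl29 encodes a large subunit protein that mice can live without, at the cost of reduced growth. In the diet libraries its levels were either low or high, and the split cut across the groups. After transfer it had the values above. On lean diet it had 75.0, 63.4 and 63.9 CPM in KO, against 53.4, 191 and 139.6 CPM in WT. At 4 weeks of HFD it had 129.6, 58.0 and 58.1 CPM in KO, against 100.4, 46.7 and 55.3 CPM in WT. At 16 weeks it had 125, 57.8 and 139 CPM in KO, against 62.8, 122 and 51.1 CPM in WT. High and low libraries thus occurred in 5 of the 6 diet groups, and lean diet KO held low ones only.

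In the diet libraries the pseudogene Gm8210 ran the other way. It is a processed pseudogene at chr1:43189156-43189638 (mm10, + strand), and the Rpl29 gene lies at chr9:106429454-106431568 (+ strand). Their sequences are shown because they are so alike. The spliced coding sequence of Rpl29 and the pseudogene transcript (GENCODE M21) both hold 483 bases and differ at 3. Bases 61 to 310 are printed, with the 2 differences they hold in capitals.
Rpl29: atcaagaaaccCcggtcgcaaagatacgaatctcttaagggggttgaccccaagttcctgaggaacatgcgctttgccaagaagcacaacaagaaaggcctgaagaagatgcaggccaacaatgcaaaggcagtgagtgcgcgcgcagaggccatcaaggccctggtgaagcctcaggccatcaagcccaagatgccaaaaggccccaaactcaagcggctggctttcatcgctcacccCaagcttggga
Gm8210: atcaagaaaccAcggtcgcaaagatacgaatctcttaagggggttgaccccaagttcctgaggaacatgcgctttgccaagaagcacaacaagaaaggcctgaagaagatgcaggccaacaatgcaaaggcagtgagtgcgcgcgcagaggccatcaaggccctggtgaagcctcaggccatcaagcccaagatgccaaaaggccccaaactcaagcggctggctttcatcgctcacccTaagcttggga
The differences are C72A, C300T and T423C, with the Rpl29 base first and positions counted from 1 at the A of the start codon. Of the 446 windows of 38 bases in the Rpl29 coding sequence, 332 occur unchanged in Gm8210, and 104 annotated genes share at least 1 window with Rpl29. In WT lean diet replicate 2, where Rpl29 was highest of all at 459 counts, Gm8210 had 0 counts. The other WT lean diet libraries had 23.9 and 10.4 CPM of Gm8210, and the KO ones 28.4, 21.7 and 24.2 CPM. At 4 weeks of HFD Gm8210 had 12.05, 23.5 and 21.2 CPM in KO, against 10.9, 30.7 and 25.9 CPM in WT. At 16 weeks it had 11.4, 28.0 and 9.72 CPM in KO, against 23.7, 12.5 and 23.8 CPM in WT. After transfer, where Rpl29 had 88.8 to 154 CPM, Gm8210 averaged 13.0 CPM in KO and 14.1 CPM in WT. The diet libraries high in Rpl29, at 100.4 to 191 CPM, had 0 to 12.5 CPM of Gm8210, and those low in Rpl29, at 46.7 to 75.0 CPM, had 21.2 to 30.7 CPM. Abhd14a, which lies near Rpl29 at chr9:106440051-106447678 and shares no window with it, was also highest in that WT library (27.8 CPM, against 3.90 to 18.4 CPM in the other diet libraries). Both genes were picked after their values were seen, and what sets the 2 levels of Rpl29 was not tested.

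**Figure D4:**
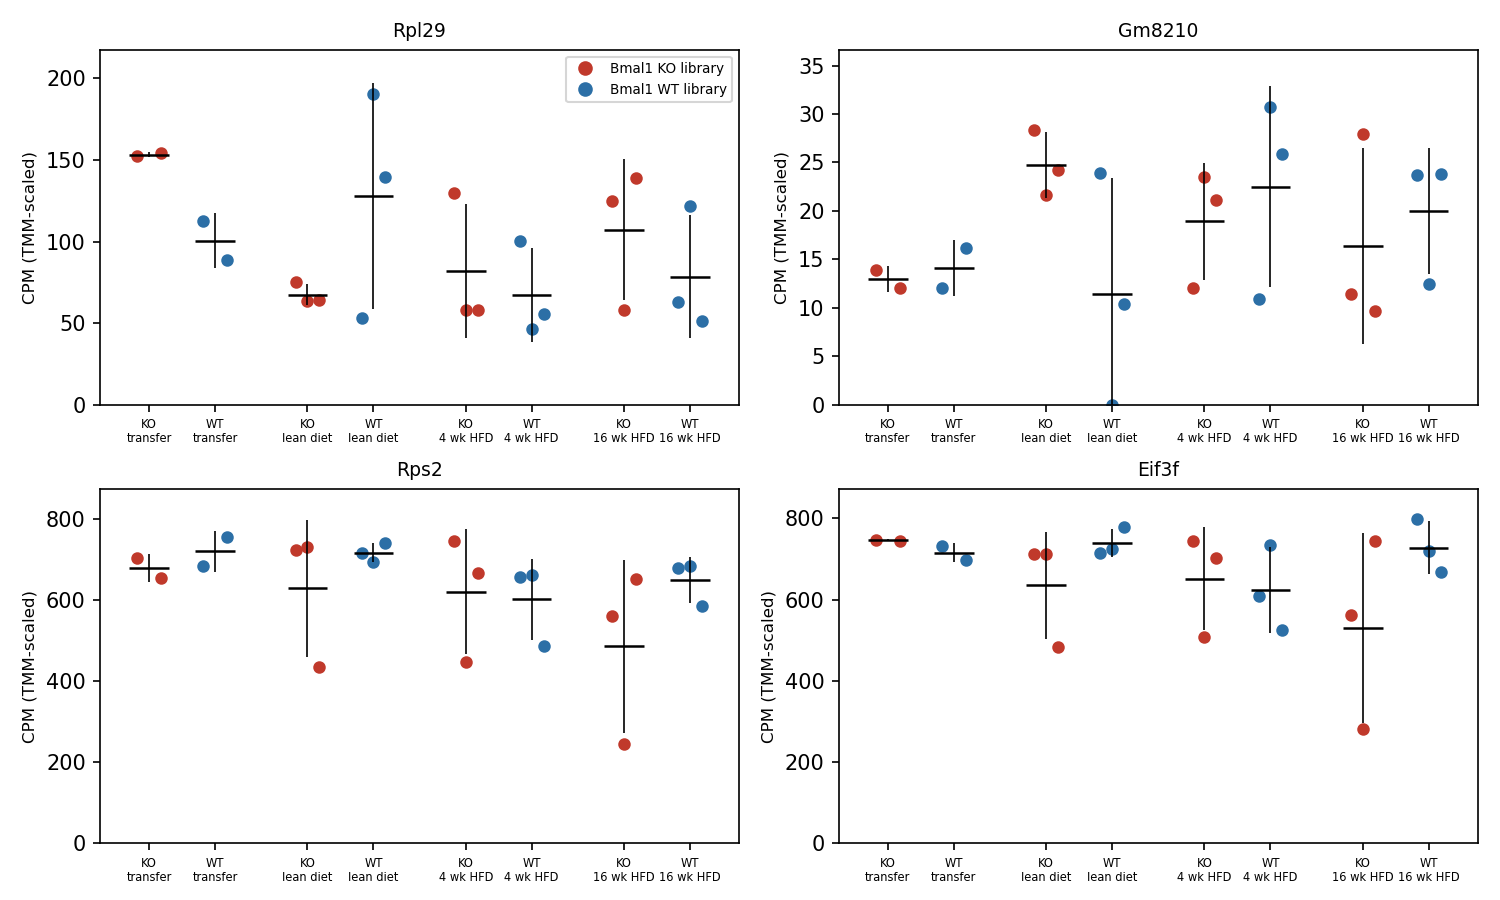
CPM (y axes, from 0) of Rpl29 and its pseudogene Gm8210 (top) and of Rps2 and Eif3f (bottom) in the 8 groups (wk HFD for weeks of high fat diet). Points are libraries, red for KO and blue for WT, with the mean and SD as lines; diet libraries high in Rpl29 are low in Gm8210, and, apart from these, the 5 libraries lowest in Rps2 are also the lowest in Eif3f.

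Rps2, a small subunit protein of the messenger channel, was low in a few libraries only. It had 704 and 655 CPM in KO, against 684 and 756 CPM in WT, after transfer. On lean diet it had 722, 729.7 and 434 CPM in KO, against 717, 693 and 741 CPM in WT. At 4 weeks of HFD it had 745, 448 and 667 CPM in KO, against 657, 662 and 487 CPM in WT. At 16 weeks it had 559.7, 244 and 653 CPM in KO, against 679.7, 684 and 584 CPM in WT. The 5 lowest libraries were 4 KO and 1 WT, and 3 of them, KO replicate 3 on lean diet, WT replicate 3 at 4 weeks and KO replicate 2 at 16 weeks, each had 75 of 82 members above their mean. Eif3f, a subunit of initiation factor 3, was lowest in the same 5 libraries, at 483 CPM in KO replicate 3 on lean diet, 508 CPM in KO replicate 2 and 525 CPM in WT replicate 3 at 4 weeks, and 562 and 283 CPM in KO replicates 1 and 2 at 16 weeks. In the other 17 libraries Eif3f had 609.5 to 797 CPM. Ppp4c, a protein phosphatase subunit, had 68.4 to 140.5 CPM in these 5 libraries and 177 to 236 CPM elsewhere. Eif3f and Ppp4c were picked after their values were seen. The KO over WT log2 fold change of Rps2 at 16 weeks was -0.42 ± 0.26 (SE; adjusted p = 0.697), and stromal markers were high in KO replicate 1 of that group, whose part in this was not tested.

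Few members were called between the diets. At 4 weeks of HFD against lean diet, averaged over genotypes, 0 of 82 members and 0% of all 11698 genes were called by edgeR, and 0 members by DESeq2. At an unadjusted p under 0.05 there were 2 members, Rpl14 and Rpl31, both lower (8.04% of all genes). The CPM ranges of the groups overlapped for all 82 members, while they did not for 0.462% of all genes. Folds were negative for 73 of 82 members, with a median log2 fold change of -0.08, against -0.00 for all genes. At 16 weeks against lean diet 1 of 82 members was called (1.22%), against 6.63% of all genes, and it was lower, as were 3.72% of all genes. Before adjustment, 3 members had a p under 0.05, against 20.1% of all genes, and CPM ranges did not overlap for 0 members, against 2.4% of all genes. At 16 against 4 weeks 0 of 82 were called by edgeR, against 2.11% of all genes, while DESeq2 called 1. At an unadjusted p under 0.05 edgeR gave 1 there, Rpl22l1, against 13.8% of all genes. CPM ranges did not overlap for 0 members, against 1.44% of all genes.

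Rpl14, of the large subunit, was the gene called at 16 weeks. It had 376, 405 and 391 CPM in KO and 415, 384 and 355 CPM in WT at 16 weeks of HFD. On lean diet it had 466, 454 and 503 CPM in KO and 461, 411 and 429 CPM in WT. One 16-week library lay above the lowest lean diet library, so the groups overlapped. Rpl14 fell by 0.23 ± 0.07 on the log2 scale (SE; adjusted p = 0.0459), and at 4 weeks of HFD it was 406, 380.1 and 406 CPM in KO and 383, 373 and 441 CPM in WT. The call rests on every library: leaving out any 1 of the 12 ended it, with adjusted p of 0.0523 to 0.126 and log2 fold changes of -0.25 to -0.20. It was also lost under 5 of 6 other settings, with adjusted p of 0.0519 to 0.286, and held with DESeq2 (adjusted p = 0.0116). Rps12, which had the next smallest p, had -0.19 ± 0.08 (adjusted p = 0.194).

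Rpl22l1 was higher at 16 weeks by its values. It had 89.3, 79.0 and 66.7 CPM in KO and 71.4, 59.2 and 63.0 CPM in WT at 16 weeks of HFD. At 4 weeks it had 62.1, 58.0 and 45.5 CPM in KO and 47.2, 45.5 and 60.3 CPM in WT, and on lean diet 61.1, 56.0 and 72.1 CPM in KO and 45.4, 63.5 and 56.1 CPM in WT. WT replicate 2 at 16 weeks lay below 2 of the 4-week libraries, and the other 5 libraries at 16 weeks lay above all 6 of them. The log2 fold change of 16 over 4 weeks was 0.43 ± 0.12 (SE), with an adjusted p of 0.0842 by edgeR's quasi-likelihood test and 0.0463 by DESeq2, and 0.0474 by edgeR without WT replicate 3 at 4 weeks. Over its alternatives the adjusted p ran from 0.0463 to 0.211. As a percentage of Rpl22 counts, uncorrected for length, Rpl22l1 was 32.5 ± 5.76% in KO and 27.1 ± 1.60% in WT at 16 weeks, against 24.1 ± 3.63% in KO and 21.96 ± 0.260% in WT at 4 weeks (SD, n = 3 each). Rps27 had the next smallest p for this comparison, with 0.21 ± 0.10 (adjusted p = 0.374).

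Transferred Tregs differed from lean diet Tregs in 4 of 82 members (4.88%), against 16.2% of the 12523 genes tested, and DESeq2 also called 4, the same genes. Rps27l rose (7.35% of all genes rose), while 3 members, among them Rpsa and Rps4l, fell (8.8% of all genes fell). Before adjustment, 14 members had a p under 0.05, against 30.1% of all genes. Fitted on the transfer and lean diet libraries alone, 6 members were called, with Rps27 and Rps29 added, while the number of all genes called was 1797, against 2023 in the fit of 22 libraries. The median log2 fold change was 0.00 over the members, of which 41 were positive, against -0.02 over all genes. CPM ranges did not overlap for 11 members (13.4%), against 11.7% of all genes. The 6 lean diet libraries also served as the reference of the HFD comparisons above. Resident and transferred cells also differed in age, depth and history, and possibly in batch, which cannot be told apart. Their libraries differed in markers of cell state too. The adipose Treg markers, 7 genes including Il1rl1 and Klrg1, summed to 9972 to 10942 CPM after transfer and to 3492 to 6756 CPM on lean diet. Their part in these results was not tested.

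Rps27l encodes a paralog of the small subunit protein S27 and is a known target of p53 in human and mouse cells. It had 78.3 and 102 CPM in KO and 73.2 and 90.1 CPM in WT after transfer. On lean diet it had 42.6, 51.3 and 52.0 CPM in KO and 50.5, 53.6 and 40.1 CPM in WT. All 4 transfer libraries lay above all 18 diet libraries, whose highest value was 58.6 CPM. The log2 fold change was 0.83 ± 0.16 (SE; adjusted p = 0.00107). Rps27 itself had 681 and 668 CPM in KO and 681 and 689 CPM in WT after transfer, and 818, 723 and 873 CPM in KO and 749, 799 and 866 CPM in WT on lean diet. Rps27l counts were thereby 13.4 ± 2.68% of Rps27 counts in KO and 11.9 ± 1.64% in WT after transfer (SD of 2 libraries). On lean diet the percentage was 6.08 ± 0.949% in KO and 6.03 ± 1.21% in WT (SD of 3 libraries).

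The coding sequences are printed because the calls on this pair rest on telling their reads apart. Rps27 (chr3:90212522-90213651, - strand) and Rps27l (chr9:66946086-66949516, + strand) both code in 255 spliced bases, in mm10 and GENCODE M21, and the bases that differ are in capitals.
Rps27: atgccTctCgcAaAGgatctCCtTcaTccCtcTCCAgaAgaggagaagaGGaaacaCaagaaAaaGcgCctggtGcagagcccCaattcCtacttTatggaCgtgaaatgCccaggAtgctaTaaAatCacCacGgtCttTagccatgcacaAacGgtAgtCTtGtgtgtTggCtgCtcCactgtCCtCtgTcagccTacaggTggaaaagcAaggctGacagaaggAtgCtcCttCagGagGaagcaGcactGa
Rps27l: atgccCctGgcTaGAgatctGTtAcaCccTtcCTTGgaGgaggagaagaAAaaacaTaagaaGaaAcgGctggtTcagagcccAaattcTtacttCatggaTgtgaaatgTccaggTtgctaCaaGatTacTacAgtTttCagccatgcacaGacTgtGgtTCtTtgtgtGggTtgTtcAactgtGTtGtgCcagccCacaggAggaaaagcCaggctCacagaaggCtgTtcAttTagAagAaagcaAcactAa
They differ at 61 positions, an identity of 76.1%. No stretch without a difference reaches 38 bases, so as aligned no window of that length is common to both coding sequences. Of the windows of 38 bases, 57.3% of those in Rps27l and every one in Rps27 recurred in some other annotated transcript. Of the 12 genes sharing windows with Rps27, 11 were processed pseudogenes.

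**Figure D5:**
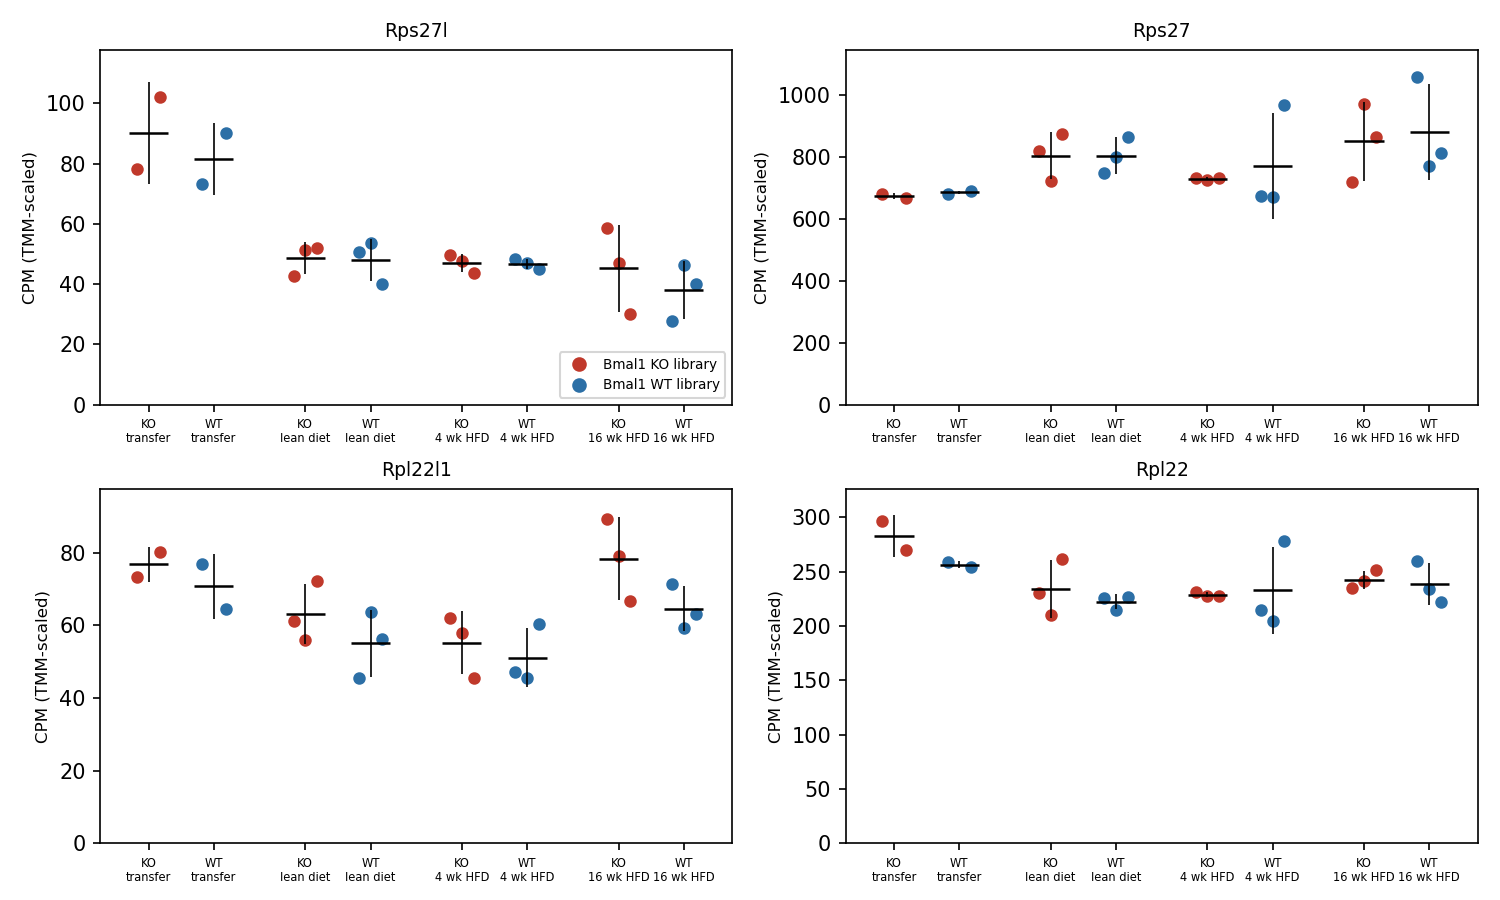
CPM (y axes, from 0) of the paralogs Rps27l and Rpl22l1 (left) and of Rps27 and Rpl22 (right) in the 8 groups (wk HFD for weeks of high fat diet). Points are libraries, red for KO and blue for WT, with the mean and SD as lines; the 4 transfer libraries stand above all others for Rps27l and not for Rps27.

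Rpsa, a small subunit protein also described as a laminin receptor precursor, had 958 and 932 CPM in KO and 1002 and 968 CPM in WT after transfer. On lean diet it had 1145, 1062 and 1244 CPM in KO and 1186, 1229 and 1256 CPM in WT. All transfer libraries lay below all lean diet libraries, and Rpsa fell by 0.30 ± 0.07 on the log2 scale (SE; adjusted p = 0.00551, or 0.0596 without the filter on low counts). Every window of its coding sequence recurred in other annotated genes, 31 in all. Rps4l had 1 and 9 counts in KO and 0 and 9 counts in WT after transfer. On lean diet it had 30, 11 and 9 counts in KO and 16, 12 and 11 counts in WT. The transfer libraries were lower on the CPM scale, at 0 to 1.69 CPM against 4.11 to 10.9 CPM, and Rps4l fell by 2.77 ± 0.68 on the log2 scale (adjusted p = 0.00686), a value that rests on these few counts and was -4.96 without WT transfer replicate 2, where the WT library left had 0 counts. Its full-length relative Rps4x had 1584 and 1545 CPM in KO and 1558 and 1548 CPM in WT after transfer, and 1256 to 1464 CPM over the 6 lean diet libraries.

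Other genes of the translation machinery were set beside the members as lists of initiation factors (37 genes), elongation factors (8), other TOP genes (18), ribosome biogenesis (46) and translation control (15). Fau was set beside them. None of these genes was called between KO and WT on any diet or after transfer, nor was any of the 77 mitochondrial ribosomal protein genes tested. Over all genes only 0.0427% to 0.18% were called in the KO comparisons, the average over diets included. With so few calls, 0 in lists of this size says little about them. Fau averaged 575 CPM in KO and 577 CPM in WT over the diets, with a log2 fold change of -0.00 ± 0.07 (adjusted p = 0.999). Median log2 fold changes of KO over WT for the average over diets were 0.03 for initiation factors, 0.01 for elongation factors, 0.05 for other TOP genes and 0.03 for ribosome biogenesis genes, against 0.00 for all genes.

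At 16 weeks of HFD against lean diet, 5 genes of these lists fell and 0 rose, in a comparison where 435 of 11698 genes fell and 341 rose. By list these were 1 of 37 initiation factors, 1 of 18 other TOP genes, 2 of 46 ribosome biogenesis genes and 1 of 15 translation control genes. Of 8 elongation factors 0 fell. Over all genes 3.72% fell, so these few calls do not set the lists apart from other genes. Eif4ebp1, the mTORC1-controlled repressor of cap-dependent initiation, was 29.9 CPM on average at 16 weeks and 54.4 CPM on lean diet, a fall by 0.85 ± 0.17 on the log2 scale (SE; edgeR adjusted p = 0.00334). Myc, which drives ribosome production, averaged 197 CPM at 16 weeks and 269 CPM on lean diet (log2 -0.45, adjusted p = 0.0312). Polr1a, the largest subunit of RNA polymerase I that makes ribosomal RNA, averaged 96.3 CPM at 16 weeks and 145 CPM on lean diet (log2 -0.60, adjusted p = 0.0321). Atf4, a stress-induced transcription factor, had a log2 fold change of -0.32 (adjusted p = 0.0256) and Tpt1, a TOP gene outside the ribosome, -0.22 (adjusted p = 0.0409). In the same comparison 3 of 9 resting T cell genes rose, S1pr1 by 0.73, Tcf7 by 1.08 and Lef1 by 0.61 on the log2 scale, and 0 fell. The adipose Treg markers summed on average to 2744 CPM in KO and 4105 CPM in WT at 16 weeks, against lean diet averages of 6479 CPM (KO) and 4790 CPM (WT). Endothelial markers, of which Pecam1 was the most abundant and Cdh5 was at 0 in 11 of 22 libraries, summed to 156 CPM in KO and 90.3 CPM in WT at 16 weeks, against lean diet averages of 55.7 CPM (KO) and 69.4 CPM (WT). The part of these markers in the other changes, Rpl14 included, was not tested. At 16 against 4 weeks of HFD 1 gene, the ribosome assembly factor Bysl, fell by 0.60 on the log2 scale (adjusted p = 0.0130), in a comparison where 179 of 11698 genes fell.

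After transfer, against lean diet, 5 of 37 initiation factor genes rose and 0 fell, beside 7.35% of all genes that rose and 8.8% that fell. Eif2s1, which carries the phosphorylation site that halts initiation under stress, averaged 156 CPM after transfer and 93.2 CPM on lean diet (log2 0.74 ± 0.12, adjusted p = 0.000198). Eif1, which helps to select the start codon, averaged 446 CPM after transfer and 349 CPM on lean diet (log2 0.36, adjusted p = 0.00443), and its paralog Eif1b had a log2 fold change of 0.55 (adjusted p = 0.00733). Eif2s2 and Eif1ax had 0.42 and 0.45. Eef2k, the kinase that slows elongation, rose by 1.21 ± 0.38 on the log2 scale (adjusted p = 0.0337) and Eif2ak4, the amino acid sensing kinase GCN2, fell by 1.03 (adjusted p = 0.00136). Among other TOP genes Tpt1 and Pabpc1 rose by 0.26 and 0.22, and Rack1, a scaffold bound to the small subunit, fell by 0.22 on the log2 scale. Of biogenesis genes Pno1 rose by 0.59 and Nop56 fell by 0.42, and the kinase gene Rps6ka1 rose by 0.51. The mitochondrial ribosome had 4 of 77 tested genes that rose, Mrps25, Mrpl36, Mrpl33 and Mrps12, and 0 that fell, with a median log2 fold change of 0.12. Among resting T cell genes 1 of 9, Il7r, rose and 5 fell, among them Tcf7 by 3.19 and Bach2 by 4.87 on the log2 scale.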

How the data were processed

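Libraries were made, per the labels' protocols, by oligo(dT) priming, PCR and tagmentation, which keeps no strand information, and sequenced as 38-base read pairs. The submitters' processing notes list STAR 2.7.3a, featureCounts and the mm10 build, and no featureCounts settings are stated in what was used here. Values are the authors' whole-number counts per gene as deposited, unscaled. Of the table's 55011 symbols 52936 were in GENCODE M21, including all 82 members.

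The members and the gene lists were chosen with earlier results of these data known. After TMM scaling, tests used edgeR 4.0.16 (quasi-likelihood, R 4.3.3) on genes passing its filter on low counts (minimum count 10), with Benjamini-Hochberg adjustment over all genes tested. The 18 diet libraries were fitted together (11698 genes), the 4 transfer libraries alone (11715) and all 22 for transfer against lean diet (12523), with a mean per group. Alternatives were RLE scaling, scaling without the members, no filter, DESeq2 1.42.0, only the compared groups, a replicate block and leaving out each library. The procedure was tested on simulated data. Members were named if called, if among the 5 smallest p in a direction, by level or variation rank, or as paralogs, and list genes if called. Of these the text gives a selection, and some genes, 1 of those called among them, are not reported here. No library was left out. Counting floors of 3 counts corresponded to 0.538 to 1.59 CPM, and PCR copies are counted apart, so intervals and floors cover counting error only. No pair of libraries of the same group agreed within counting noise (lowest chi-square per degree of freedom between replicates 4.22), and pairs from different groups were not compared.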

Additional observations from a re-analysis of the deposited data

Results flagged for a closer look

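Rpl36al was singled out because every KO library lay above every WT library on lean diet (45.5, 44.9 and 43.8 CPM in KO, against 39.8, 36.5 and 34.0 CPM in WT) and below every WT library at 4 weeks of HFD (35.4, 36.7 and 34.4 CPM in KO, against 37.5, 38.1 and 37.9 CPM in WT). The log2 fold changes of KO over WT differed by 0.37 between these diets, lower at 4 weeks, and a test of that difference by edgeR's quasi-likelihood test gave an adjusted p of 0.9997 with a standard error of 0.21. At 16 weeks KO had 42.9, 40.4 and 33.7 CPM, against 42.7, 41.4 and 40.2 CPM in WT, with ranges that overlapped. Its coding sequence has every window of 38 bases in common with other annotated genes.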

How the results depend on the processing

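The number of members called in KO against WT stayed at 0 for the average over diets, at 4 weeks of HFD and after transfer under every alternative run. Without the filter on low counts it became 1 on lean diet (Rpl29), 1 at 16 weeks (Rps2) and 1 in each of both interactions (Rpl29); the cause was not tested. At 16 weeks of HFD against lean diet the single call became 0 with RLE scaling, scaling without the members, no filter, only the compared groups, the replicate block and in each fit that left out 1 library (0 to 0), and stayed 1 with DESeq2. At 16 against 4 weeks the count was 1 with DESeq2 and 0 to 1 when libraries were left out, with 1 only without WT replicate 3 at 4 weeks (Rpl22l1). Transfer against lean diet had 4 calls with DESeq2, RLE scaling and scaling without the members, the same genes in each, 6 with only the compared groups and 4 to 5 without 1 library. Without the filter it had 4, where Rpsa lost its call (adjusted p = 0.0596) and Rpl29 gained one. Where 1 transfer library was left, it was assumed to vary like the others. The log2 ratio of the share for KO over WT at 16 weeks ran from -0.0092 to 0.16 with 1 library left out, and was 0.16 without WT replicate 1, against 0.07 with all. On TMM-scaled CPM the median over members gave 0.023 on lean diet (raw share -0.07) and -0.011 for transfer against lean diet (raw share -0.14). Same-numbered replicates did not deviate together (correlations -0.01 to 0.09), so the replicate block, which gave 0 members in every KO comparison, was not preferred; no block was run for transfer against lean diet, whose groups share 2 numbers with no pairing. All-gene counts moved more: KO over WT had 5, 8, 5, 21 and 20 calls on lean diet, at 4 weeks, at 16 weeks, on average and after transfer, against 23, 7, 43, 34 and 57 by DESeq2 and 135, 75, 428, 273 and 102 with no filter. Only the compared groups gave 10 calls on lean diet and 50 at 16 weeks, and the block 10, 5 and 8 in the 3 diets and 40 after transfer. HFD against lean diet at 4 weeks had 0 calls, against 55 by DESeq2, 161 with no filter, 2 with the compared groups and 1 with the block, and 16 against 4 weeks had 247, against 384 by DESeq2 and 536 with no filter. The interactions had 0, against 24 (16 weeks) by DESeq2, 22 (4 weeks) and 258 (16 weeks) with no filter and 11 (16 weeks) with the block. Leaving out 1 library gave 4 to 35 calls for KO over WT at 16 weeks, 4 to 11 on lean diet, 0 to 36 for the 16-week interaction and 114 to 425 for 16 against 4 weeks. Depth limits Rps4l most, at 0 to 35 counts in a library.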
